A study of Mus musculus with 16 samples.

Results

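The neuronal immediate early genes described here are 10 activity-regulated genes chosen by name, *Fos*, *Fosb*, *Junb*, *Arc*, *Egr1*, *Egr2*, *Egr4*, *Npas4*, *Nr4a1* and *Dusp1*, out of 39179 gene identifiers counted by RNA-Seq in mouse cortex. The list was given by name, with earlier results of these data known. The 16 mice fell into 4 groups of 4: MRPS5 WT mice at 3 months, MRPS5 V338Y mice at 3 months, MRPS5 WT mice at 19 months and MRPS5 V338Y mice at 19 months. The *Mrps5* product is part of the small mitoribosomal subunit, and V338Y mice are homozygous C57/BL6 knock-ins that carry the amino acid change in every cell, whereas WT mice carry the unchanged gene. The labels name brain as the tissue and give an extraction from muscle, and the study's methods name cortex.

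Several facts of the whole series touch every comparison between ages. The methods describe female mice, but all 3-month-old libraries held transcripts of the Y chromosome, with 915 to 2129 counts of *Ddx3y* and 5 to 20 counts of *Xist*, while all 19-month-old libraries held 6331 to 14860 counts of *Xist* and 0 of *Ddx3y*. Age therefore cannot be told apart from this difference in sex-linked transcripts, nor from a suffix that only the titles of the 19-month-old libraries carry. Summed over 8 endothelial markers, the level was 229 to 243 CPM (counts scaled to library size, with TMM factors over all 16 mice) at 3 months and 969 to 1135 CPM at 19 months. Over 8 microglia markers it was 223 to 312 CPM at 3 months and 489 to 563 CPM at 19 months. The sum of 14 cerebellum markers ran from 2186 to 3176 CPM in 3-month-old WT mice, from 1272 (mouse 14) to 4546 CPM (mouse 15) in 3-month-old V338Y mice and from 1434 to 1575 CPM at 19 months. Taken one by one, these markers had a median log2 change from 3 to 19 months of -3.40 in WT and -3.31 in V338Y mice. All 14 estimates were below 0 in both genotypes. The 10 excitatory cortical neuron markers summed to 1409 to 1926 CPM and none was at 0 in a group, so every group held cortical neuron transcripts. This does not show how much tissue of other regions, such as cerebellum, the libraries held. The part of these markers in the results on immediate early genes was not tested. Total counts were between 6181448 and 19601664 per mouse. *Mrps5* itself was measured at 30.2 ± 1.98 CPM in WT and 30.3 ± 1.72 CPM in V338Y mice at 19 months (SD, n = 4).

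Immediate early genes are transcribed within minutes of a stimulus, without new protein synthesis, because transcription factors such as CREB and SRF already sit on their promoters and are switched on by kinases downstream of calcium entry and growth factor receptors. In neurons of the cortex they respond to synaptic activity and are used as marks of recently active cells. Most encode transcription factors, *Arc* encodes a protein that acts directly at synapses, and *Dusp1* encodes a phosphatase that shuts the signal down. Their mRNAs are short-lived, and a level in frozen tissue reports the period before the animal was killed.

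Sequences before the start sites are shown because the 10 genes were chosen for a shared kind of regulation that the counts do not measure. RefSeq starts on the GRCm38.p6 build were matched by symbol for 8 of the 10 genes, all but *Arc* and *Egr1*, and the 250 bases before each start were searched on both strands. The core motif of the cyclic AMP response element, TGACG or CGTCA on the printed strand, was found in 8 of 8 genes and in 19.8% of the 26994 genes with such a window. At least 2 core motifs stood in a window of 6 of the 8 genes, and 3.90% of all 32817 windows held as many. The first count is per gene and the second per window, and a gene such as *Egr2* has several windows. These 2 shares are therefore not directly comparable. The full element TGACGTCA, which holds a core motif on each strand and so counts as 2 of them, was found in *Dusp1* (1.77% of all genes). A CArG box, to which SRF binds, was found in *Egr2* (1.63% of all genes), and a TATAAA box in *Fos* (14.3% of all genes). The windows of 4 genes with at least 2 core motifs are printed from 5′ to 3′ on the strand of the gene, with these motifs in capitals. They lie at chr12:85473640-85473889 on the plus strand for *Fos*, chr6:85513590-85513839 on the minus strand for *Egr4*, chr15:101266596-101266845 on the plus strand for *Nr4a1* and chr17:26508520-26508722 on the minus strand for *Dusp1*, where bases inside an exon of the GENCODE M21 annotation were left out. The starts of *Nr4a1* and *Dusp1* lie inside genes that this annotation draws longer. The window of *Npas4*, which is counted among the 8 and among the 6, lies with all its 250 bases in an annotated exon of the gene, and the windows of *Egr2* that hold its motifs lie inside the annotated gene.
Fos: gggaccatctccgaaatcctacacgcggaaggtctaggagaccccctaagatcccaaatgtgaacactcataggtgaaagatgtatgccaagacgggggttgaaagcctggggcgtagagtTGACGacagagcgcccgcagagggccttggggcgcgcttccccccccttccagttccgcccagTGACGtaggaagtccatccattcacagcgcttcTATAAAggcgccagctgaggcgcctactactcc
Egr4: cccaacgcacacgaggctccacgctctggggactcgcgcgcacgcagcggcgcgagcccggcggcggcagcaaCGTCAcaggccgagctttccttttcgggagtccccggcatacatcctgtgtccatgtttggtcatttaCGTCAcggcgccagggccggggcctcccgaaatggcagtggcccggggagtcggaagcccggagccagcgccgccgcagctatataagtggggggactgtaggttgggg
Nr4a1: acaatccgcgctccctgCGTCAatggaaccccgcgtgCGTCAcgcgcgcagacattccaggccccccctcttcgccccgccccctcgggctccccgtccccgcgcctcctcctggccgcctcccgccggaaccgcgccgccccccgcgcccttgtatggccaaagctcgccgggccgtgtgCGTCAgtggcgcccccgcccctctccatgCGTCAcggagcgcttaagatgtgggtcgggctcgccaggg
Dusp1: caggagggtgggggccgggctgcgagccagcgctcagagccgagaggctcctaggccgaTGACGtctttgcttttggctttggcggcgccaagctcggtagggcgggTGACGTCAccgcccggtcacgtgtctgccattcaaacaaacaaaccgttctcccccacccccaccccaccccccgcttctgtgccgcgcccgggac
In *Fos* the core motifs begin 129 and 66 bases before the start and the TATAAA box begins 33 bases before it. In *Nr4a1* there are 4 core motifs, in *Egr4* there are 2 and in *Dusp1* there are 3, of which 2 belong to the full element at 143 bases before the start. A match in these windows describes the letters only.

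All 10 genes passed the filter on low counts in every comparison, with 26 (*Egr2*) to 4088 (*Arc*) counts per gene and mouse. Per kilobase of exon, *Arc* had the highest level, 57.0 ± 19.6 CPM per kb over all mice (SD, n = 16). It was followed by *Junb* at 21.0 ± 4.14, *Nr4a1* at 12.5 ± 3.00, *Egr1* at 10.2 ± 2.26 and *Fos* at 9.70 ± 2.84 CPM per kb. The lower levels were those of *Dusp1* at 7.81 ± 2.07, *Egr4* at 4.43 ± 1.01, *Npas4* at 2.70 ± 0.786, *Egr2* at 1.22 ± 0.298 and *Fosb* at 0.748 ± 0.211 CPM per kb. The ranges over mice of each gene and its neighbour in this order overlapped. In bulk tissue, fewer cells of a type and less RNA per cell cannot be told apart.

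The AP-1 subunits come first. *Fos* (ENSMUSG00000021250, chr12:85473890-85477273, plus strand, in the GENCODE M21 annotation of GRCm38), whose protein pairs with Jun proteins to bind DNA, stood in 3-month-old WT mice 9 to 12 at 12.6, 17.1, 30.5 and 34.2 CPM and in V338Y mice 13 to 16 at 23.2, 13.3, 17.1 and 11.8 CPM. At 19 months the WT mice 12 to 15 had 28.8, 29.4, 24.8 and 25.3 CPM and the V338Y mice 17 to 20 had 23.8, 24.5, 24.2 and 24.4 CPM. The young mice thus covered a far wider range than the old ones, and mice 11 and 12 of the young WT group were above every old mouse. *Fos* rose with age in V338Y mice (log2 fold change 0.57, SE 0.18, adjusted p = 0.0297 by the edgeR quasi-likelihood test) with no overlap between the groups, and in WT mice its log2 fold change was 0.21 (SE 0.32, adjusted p = 0.601). The call in V338Y mice was lost without mouse 14, 15, 17, 18, 19 or 20, with an adjusted p of up to 0.069 (edgeR).

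*Fosb* (ENSMUSG00000003545, chr7:19302696-19310051, minus strand) encodes a *Fos* relative whose truncated form is long-lived. Its level at 3 months was 4.43, 2.71, 5.76 and 3.18 CPM in WT mice and 2.30, 4.38, 3.51 and 3.56 CPM in V338Y mice. The level at 19 months was 5.07, 5.46, 6.17 and 5.91 CPM in WT mice and 6.25, 4.53, 5.01 and 6.49 CPM in V338Y mice. Old mice were higher in both genotypes, without overlap in V338Y mice and with mouse 11 of the young WT group inside the old range. The rise was 0.52 (SE 0.19, adjusted p = 0.0196, edgeR) on the log2 scale in WT and 0.67 (SE 0.19, adjusted p = 0.0121, edgeR) in V338Y mice. Without young mouse 10, young mouse 12 or old mouse 14 the adjusted p in WT mice rose to as much as 0.122 (edgeR).

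*Junb* (ENSMUSG00000052837, chr8:84974484-84978718, minus strand) encodes a Jun protein that restrains c-Jun at many targets. Young WT mice had 38.3, 43.4, 68.2 and 55.3 CPM, and young V338Y mice had 42.3, 38.3, 34.4 and 31.4 CPM. Old WT mice had 53.5, 51.4, 56.4 and 53.4 CPM, and old V338Y mice had 50.8, 53.3, 52.2 and 51.4 CPM. The old mice of both genotypes lay within a narrow band that the young WT mice straddled and the young V338Y mice did not reach. In V338Y mice *Junb* rose by 0.50 (SE 0.079, adjusted p = 2.5e-04, edgeR) on the log2 scale, and in WT mice the log2 fold change was 0.07 (SE 0.18, adjusted p = 0.766, edgeR). The 3′ end of *Junb* overlaps *Prdx2* on the other strand. The study names a stranded library kit, but use of strand in counting is not given in the sources used here. The 2 genes may therefore share reads.

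The EGR zinc finger factors follow, and differences among them were not tested. *Egr1* (ENSMUSG00000038418, on chromosome 18), which is induced by growth factors and by synaptic activity and drives late-response genes, had 39.4, 31.7, 49.1 and 38.7 CPM in young WT mice and 26.3, 39.6, 44.1 and 32.9 CPM in young V338Y mice. The old WT mice had 51.8, 54.7, 58.8 and 55.9 CPM and the old V338Y mice 51.5, 47.9, 55.2 and 57.5 CPM. All old mice of a genotype were above all young ones of that genotype. *Egr1* rose by 0.49 (SE 0.11, adjusted p = 0.00219, edgeR) on the log2 scale in WT and by 0.56 (SE 0.15, adjusted p = 0.0138, edgeR) in V338Y mice.

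*Egr2* (ENSMUSG00000037868, chr10:67535475-67542188, plus strand), which is also needed for myelination by Schwann cells, had 3.20 to 6.12 CPM in young WT, 2.60 to 5.04 CPM in young V338Y, 3.89 to 5.32 CPM in old WT and 3.26 to 4.23 CPM in old V338Y mice. The 4 ranges overlapped, and its log2 fold change with age was 0.01 (SE 0.18, adjusted p = 0.974, edgeR) in WT and 0.14 (SE 0.21, adjusted p = 0.608, edgeR) in V338Y mice. *Egr4* (ENSMUSG00000071341, chr6:85511121-85513589, minus strand) had 7.93 to 15.2 CPM in young WT and 6.74 to 10.1 CPM in young V338Y mice. Old WT mice 12 to 15 had 11.3, 7.28, 7.36 and 6.93 CPM of *Egr4* and old V338Y mice 17 to 20 had 10.1, 9.12, 11.02 and 10.5 CPM. One old WT mouse was therefore apart from its 3 group mates and above every V338Y mouse of its age. *Egr4* was the only gene of the 10 with a negative age estimate in WT mice, -0.36 on the log2 scale (SE 0.23, adjusted p = 0.216, edgeR). It was called lower in old WT mice without young mouse 10 (-0.51, adjusted p = 0.0283), without old mouse 12 (-0.57, adjusted p = 0.0184) and without a count filter (-0.37, adjusted p = 0.0106, all by edgeR). Its groups overlapped in both genotypes.

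*Npas4* (ENSMUSG00000045903, chr19:4984355-4990316, minus strand) encodes a factor induced by neuronal depolarisation that shapes inhibitory synapses. Young WT mice had 7.51, 3.77, 14.6 and 13.2 CPM and young V338Y mice 10.6, 10.9, 10.5 and 6.24 CPM. Old WT mice had 13.2, 13.7, 14.1 and 14.9 CPM and old V338Y mice 11.1, 14.8, 10.2 and 9.61 CPM. Mouse 10 had the lowest level of the 16 mice, and the highest young WT mouse was at 3.88 times its level, the widest range of any of the 10 genes in any group. The age estimate was 0.54 (SE 0.40, adjusted p = 0.291, edgeR) in WT and 0.25 (SE 0.19, adjusted p = 0.299, edgeR) in V338Y mice, on the log2 scale.

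*Nr4a1* (ENSMUSG00000023034, chr15:101254269-101274795, plus strand), an orphan nuclear receptor that limits dendritic spines on active neurons, stood at 27.8, 39.7, 64.0 and 55.6 CPM in young WT mice and at 40.6, 36.8, 34.9 and 23.6 CPM in young V338Y mice. At 19 months it stood at 49.9, 53.3, 53.8 and 50.2 CPM in WT mice and at 42.0, 41.0, 47.3 and 43.0 CPM in V338Y mice. The old V338Y mice were all below the old WT mice and all above the young V338Y mice. The age estimate was 0.15 (SE 0.25, adjusted p = 0.638, edgeR) in WT and 0.34 (SE 0.14, adjusted p = 0.0734, edgeR) in V338Y mice, on the log2 scale. Without young V338Y mouse 13 or 16 it was called higher in old V338Y mice, with an adjusted p of 0.0252 and 0.0461 (edgeR).

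*Arc* (ENSMUSG00000022602, chr15:74669083-74672570, minus strand), whose mRNA travels to active synapses and whose protein promotes removal of AMPA receptors, had 106, 101, 212 and 194 CPM in young WT mice and 136, 126, 84.0 and 70.0 CPM in young V338Y mice. In old mice it had 221, 231, 243 and 249.8 CPM in WT and 194, 206, 213 and 199.7 CPM in V338Y mice. Every old mouse was above every young mouse of its genotype, and the 2 old groups did not overlap. *Arc* had the largest age estimate of the 10 genes in both genotypes. It rose 1.95-fold in V338Y mice (log2 fold change 0.96, SE 0.20, adjusted p = 0.00585, edgeR), and in WT mice the ratio was 1.55 (log2 0.63, SE 0.27, adjusted p = 0.0895, edgeR), where the young mice varied 2.09-fold among themselves.

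*Dusp1* (ENSMUSG00000024190, chr17:26505590-26562128, minus strand) encodes a nuclear phosphatase that inactivates MAP kinases and so closes the feedback loop of the response. Young WT mice had 14.8, 19.0, 28.3 and 28.9 CPM and young V338Y mice 23.6, 16.6, 19.6 and 14.3 CPM. Old WT mice had 31.1, 32.3, 35.6 and 30.6 CPM and old V338Y mice 28.7, 27.6, 30.5 and 31.9 CPM. There was no overlap between ages in either genotype. On the log2 scale *Dusp1* rose by 0.68 (SE 0.13, adjusted p = 0.00153, edgeR) in V338Y mice and its estimate in WT mice was 0.51 (SE 0.21, adjusted p = 0.0733, edgeR). The annotated gene runs over *Gm8225* and *Ergic1* on the other strand, which may share its reads.

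**Figure D1:**
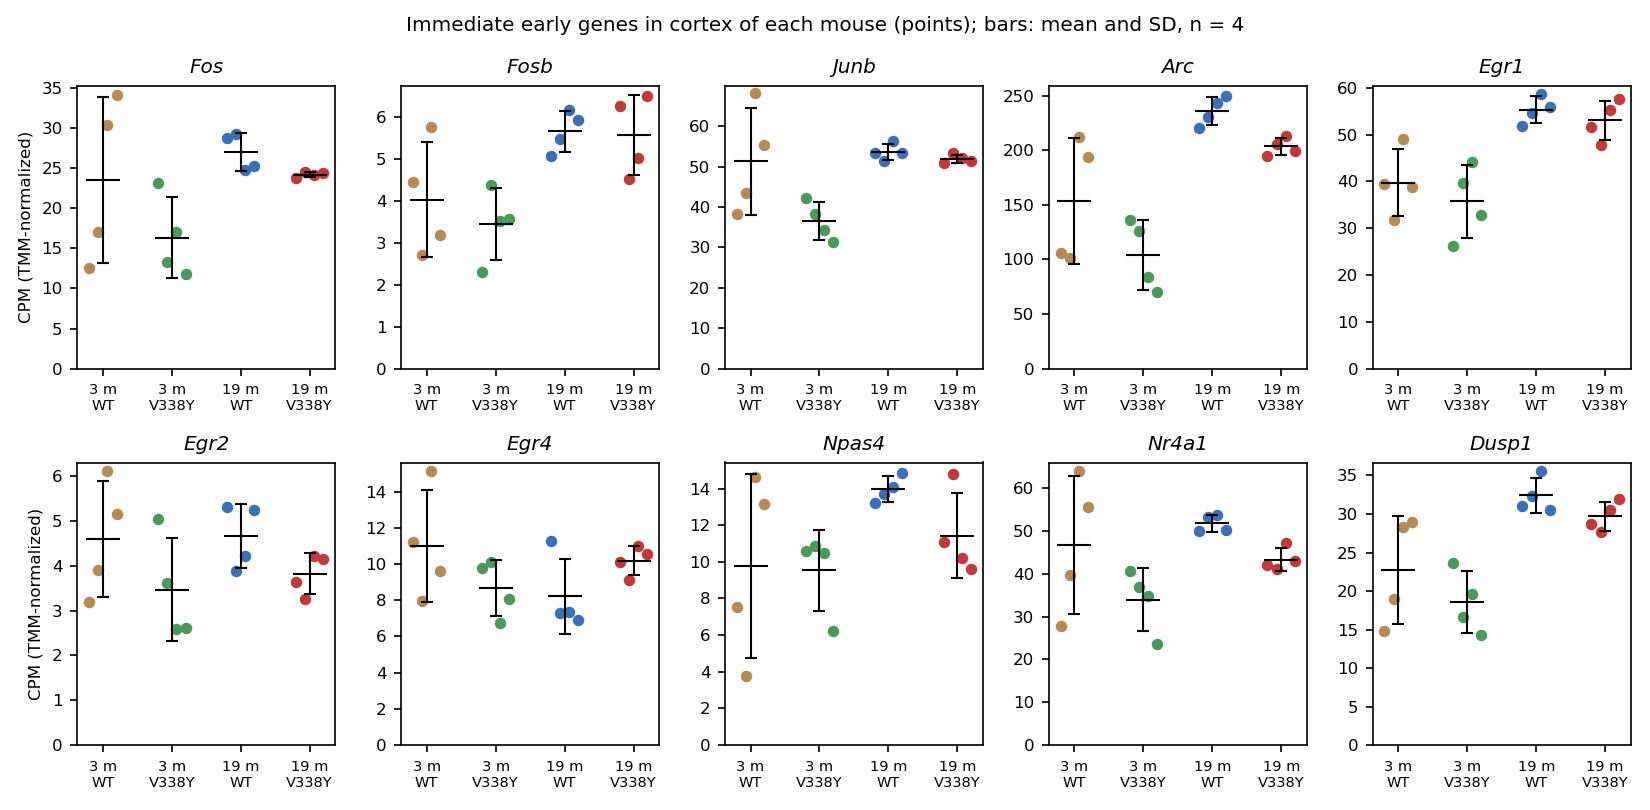
CPM of the 10 genes in each of the 16 mice (points, each panel with its own axis from 0), by age and genotype, with the mean and SD of 4 mice as bars. The young mice (brown WT, green V338Y) are scattered, from 101 to 212 CPM for *Arc* in WT mice, and the old mice (blue WT, red V338Y) are close together, from 221 to 249.8 CPM for *Arc* in WT mice.

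Over all 10 genes, age was compared within each genotype to ask how the response genes differ between young and old cortex. In WT mice 2 of 10 were called at an adjusted p under 0.05, *Egr1* and *Fosb*, both higher in old mice, where 62.8% of the 16101 genes tested were called in either direction and 31.4% were called higher. The median log2 fold change of the 10 genes was 0.35, with 9 of 10 estimates above 0, and the median of all genes was -0.005. *Arc*, *Dusp1* and *Egr1* had no overlap between the groups and were higher in old mice, as did 26.9% of all genes. The share of called members was below the background share in WT mice, while the 95% interval of *Arc* ran from -0.04 to 1.29 and that of *Npas4* from -0.44 to 1.52 on the log2 scale. Without young WT mouse 11, 5 were called (*Arc*, *Dusp1*, *Egr1*, *Fosb* and *Junb*), and without old WT mouse 14 only *Egr1* was called. Without young WT mouse 10 *Egr1* was called higher and *Egr4* lower, and without old WT mouse 12 *Egr1* and *Fosb* were called higher and *Egr4* lower. With DESeq2 or with the edgeR likelihood-ratio test 4 were called. In these alternative fits 57.1% to 62.6% of all genes were called.

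In V338Y mice 6 of 10 were called, all of them higher in old mice: *Arc*, *Dusp1*, *Fosb*, *Fos*, *Egr1* and *Junb*. Among all 16770 genes tested 48.8% were called and 23.1% were called higher. All 10 estimates were above 0, with a median of 0.53 on the log2 scale compared with -0.03 for all genes, and the groups did not overlap for 7 of 10 genes, all higher in old mice (22.2% of all genes). Between 5 and 7 genes were called when 1 mouse was left out, where 42.2% to 51.4% of all genes were called. When mice 14 and 15, which had the lowest and the highest cerebellum marker sums, were both left out, 4 were called (*Dusp1*, *Egr1*, *Fosb* and *Junb*). In the fit without both mice 51.9% of all genes were called. Adding the score of cerebellum markers as a covariate left 2 called, *Dusp1* and *Junb*, where 29.0% of all genes were called.

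The age effects of the genotypes were compared with an interaction term in all 16 mice. None of the 10 genes was called (edgeR quasi-likelihood test, DESeq2 and the edgeR likelihood-ratio test). Of all 16831 genes, 9 were called with the quasi-likelihood test (0.0535%), 43 with DESeq2 (0.255%) and 35 with the likelihood-ratio test (0.208%). At an unadjusted p under 0.05 there were 2 of 10, *Egr4* (0.60, SE 0.26, adjusted p = 0.451) and *Junb* (0.44, SE 0.19, adjusted p = 0.451), where 10.2% of all genes passed. For *Arc* the log2 difference of the age effects was 0.35 with a 95% interval from -0.43 to 1.12. The calls in V338Y mice and the missing calls in WT mice are therefore not shown to differ.

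**Figure D2:**
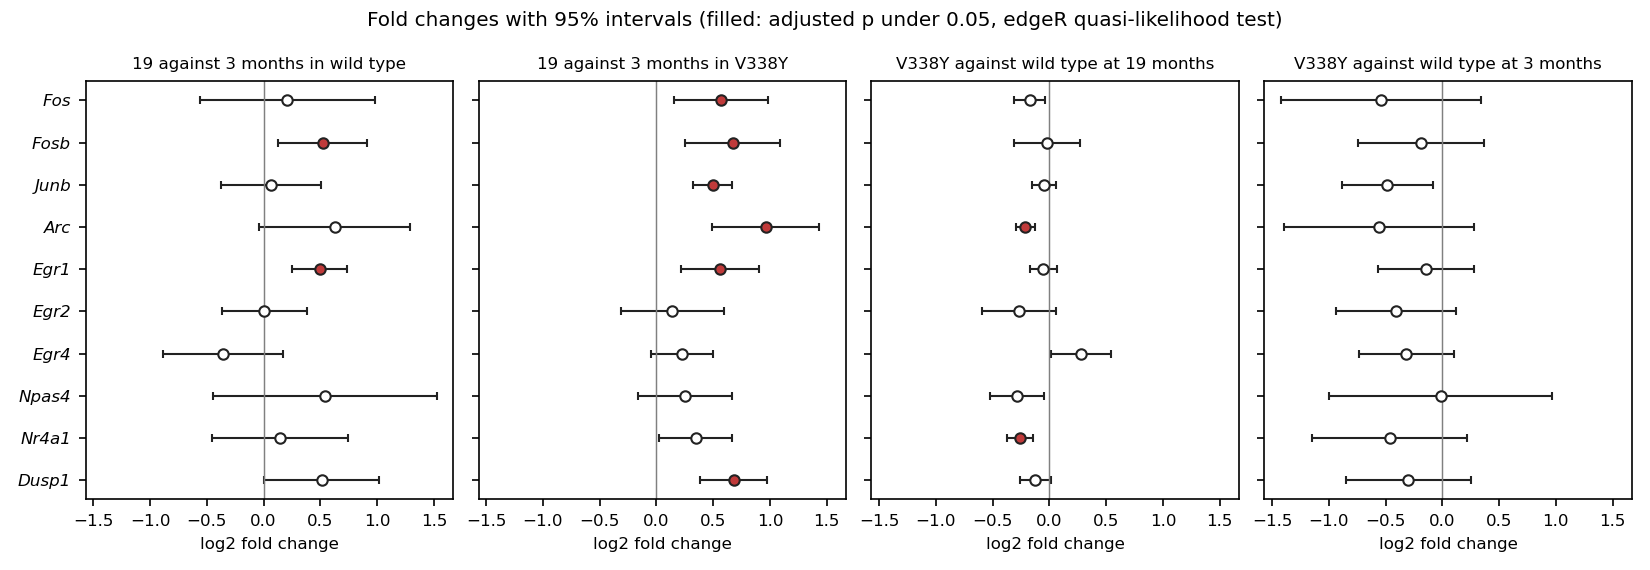
Log2 fold changes of the 10 genes in 4 comparisons, from edgeR, with 95% intervals as horizontal bars and filled points for an adjusted p under 0.05. The 2 panels on age hold 2 and 6 filled points to the right of 0, the panel on genotype at 19 months holds *Arc* and *Nr4a1* filled to the left of 0, and the panel at 3 months holds no filled point.

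Genotype was compared at each age to ask which genes differ with the mutation. At 19 months *Arc* was lower in V338Y mice, 203 ± 8.22 CPM compared with 236 ± 13.01 CPM in WT mice (SD, n = 4 each), and *Nr4a1* was lower, 43.3 ± 2.75 compared with 51.8 ± 2.05 CPM. *Arc* fell by 0.21 (SE 0.042, adjusted p = 0.00266, edgeR) and *Nr4a1* fell by 0.26 (SE 0.057, adjusted p = 0.00719, edgeR) on the log2 scale. They were the 2 of 10 genes called, where 3.12% of 16420 genes were called and 1.92% were called lower. Neither gene overlapped between the genotypes, as *Arc* reached at most 213 CPM in V338Y mice and at least 221 CPM in WT mice, and *Nr4a1* at most 47.3 and at least 49.9 CPM. *Fos* was also lower in every V338Y mouse than in every WT mouse, 24.2 ± 0.312 compared with 27.1 ± 2.35 CPM, but did not pass the test (log2 -0.17, SE 0.068, adjusted p = 0.18, edgeR). Such a complete separation downwards was found for 3 of 10 genes and for 4.82% of all genes.

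The remaining genes of the response were less clear at this age. *Npas4* had a log2 fold change of -0.28 (SE 0.11, adjusted p = 0.198, edgeR), with 11.4 ± 2.32 CPM in V338Y and 13.97 ± 0.696 CPM in WT mice and 1 V338Y mouse inside the WT range. *Egr4* was the only gene with an estimate above 0, 0.28 (SE 0.13, adjusted p = 0.272, edgeR), and without WT mouse 12 it was called higher in V338Y mice (log2 0.50, adjusted p = 0.0162, edgeR). Without V338Y mouse 18 *Npas4* was called lower (adjusted p = 0.014, edgeR). *Egr1*, *Fosb* and *Junb* had estimates between -0.05 and -0.02, and for *Junb* the 95% interval ran from -0.15 to 0.06. The median over the 10 genes was -0.15 compared with -0.00072 for all genes, and 5 of 10 had an unadjusted p under 0.05 (16.2% of all genes). Of markers of other cells, 2 of 8 astrocyte, 2 of 8 microglia and 2 of 9 meninges and choroid plexus markers were called lower in V338Y mice, 1 of 8 oligodendrocyte and 1 of 9 meninges and choroid plexus markers were called higher, and 0 of 8 endothelial and 0 of 6 blood markers were called. Of 10 neuron markers 3 were called higher, and none of the markers was at 0 in every mouse of a group. The part of these markers was not tested. The summed neuron markers were 6006 to 6424 CPM in V338Y and 6042 to 6350 CPM in WT mice. The calls of *Arc* and *Nr4a1* remained in each fit with 1 mouse left out, but in one fit of all 16 mice, which pools the spread with the young mice, neither was called. In that fit 0.689% of all genes were called.

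At 3 months no gene of the 10 was called, by edgeR's quasi-likelihood or likelihood-ratio test or by DESeq2. Of all 16241 genes, 10 were called by the quasi-likelihood test (0.0616%), 26 by the likelihood-ratio test and 26 by DESeq2 (0.160% each). All 10 estimates were below 0, with a median of -0.36 on the log2 scale and 0.005 over all genes. *Junb* alone had an unadjusted p under 0.05 (log2 -0.48, SE 0.18, unadjusted p = 0.0242, adjusted p = 0.926, edgeR), which 5.02% of all genes had. For *Arc* the log2 fold change was -0.56 with a 95% interval from -1.39 to 0.28, so a fall larger than that at 19 months and a rise both lay inside it. Without WT mouse 11 the median was -0.21 and 2 of 10 estimates were above 0.

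The spread between mice of a group differed between young and old cortex for the 10 genes, and it was described without a test. For each gene the SD of log2 CPM over the 4 mice of a group was taken. The median SD of the 10 genes was 0.467 in young WT and 0.358 in young V338Y mice, compared with 0.097 and 0.132 for the 12853 genes with a mean count of at least 50. In old mice it was 0.0891 in WT and 0.103 in V338Y mice, compared with 0.0919 and 0.0793 for all these genes. In young cortex each of the 10 genes was above the median of all genes in both genotypes, and in old cortex 5 of 10 were above it in WT and 7 of 10 in V338Y mice.

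The SD was larger at 3 than at 19 months for 10 of 10 genes in WT and for 10 of 10 in V338Y mice, while this held for 52.4% of all genes in WT and 76.3% in V338Y mice. The median ratio of the SD at 3 months to that at 19 months was 5.10 for the 10 genes and 1.04 for all genes in WT mice, and 3.08 and 1.68 in V338Y mice. *Npas4* had the largest SD, 0.879 in young WT mice, and *Arc* went from 0.561 to 0.0799 in WT and from 0.459 to 0.0581 in V338Y mice. *Egr4* changed least in WT mice, from 0.389 to 0.322, with 1 old mouse apart from the rest. Single ratios are imprecise, since in 8 of 20 pairs of a gene and an old group the SD was below what counting alone would give, as for *Fos* in old V338Y mice (0.0185 compared with 0.0754). This occurred in 0 of 20 pairs in young mice.

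**Figure D3:**
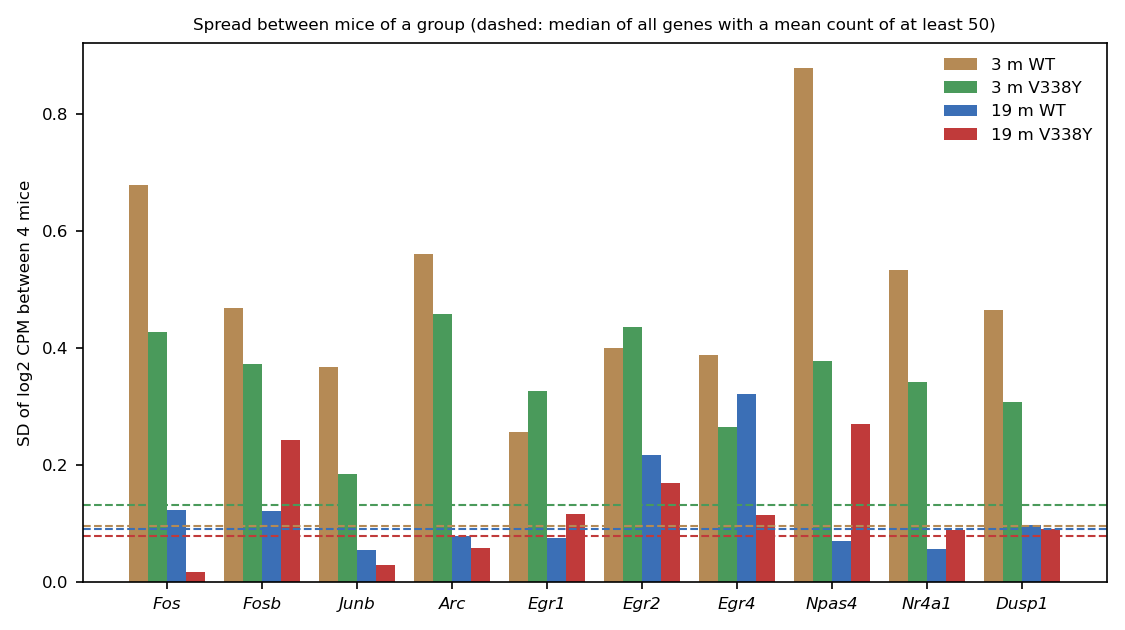
SD of log2 CPM between the 4 mice of each group for the 10 genes (bars), with the median SD of 12853 genes as a dashed line in the colour of the group. The bars of young mice (brown, green) reach 0.879 and stand above their lines for every gene, and most bars of old mice (blue, red) lie near their lines.

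The young WT mice were next compared over the 10 genes. Mouse 11 was the highest of its group for 8 of 10 genes and mouse 12 for the other two, while mice 9 and 10 were the lowest for 5 genes each. The order of mice 9 and 12 was not the same for all genes. Mouse 9 was above mouse 12 for *Fosb*, *Egr1* and *Egr4*, and mouse 12 was above mouse 9 for the other 7. Summed over the 10 genes, mice 9 to 12 had 265, 271, 494 and 438 CPM. The young V338Y mice 13 to 16 had 319.9, 299, 257 and 204 CPM, with mouse 13 highest for 6 genes and mouse 16 lowest for 6. Old WT mice lay between 471 and 504 CPM and old V338Y mice between 422 and 453 CPM, without overlap between the genotypes. The sums of mice 11 and 12 were thus within those of old mice, and the other 6 young mice were below all old mice. These sums are weighted towards *Arc*. Its mean was 236 CPM in old WT and 203 CPM in old V338Y mice, where the mean sums were 489 and 437 CPM.

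The cerebellum marker sum did not follow this order, with 2186 CPM in mouse 9, 3176 in mouse 10, 2769 in mouse 11 and 3065 in mouse 12. The 8 heat shock genes summed to 2880, 2654, 2792 and 3271 CPM in the same mice. These genes were also more variable in young than in old mice, with a median SD ratio of 2.72 in WT and 3.01 in V338Y mice. Neuron markers were not more variable in young WT mice, with a median ratio of 0.911, but were so in V338Y mice, with a ratio of 2.30. For cerebellum markers the ratio was 2.04 in WT and 7.56 in V338Y mice, and for the 26 other rapid response genes, of which 22 reached the mean count, it was 1.43 and 1.801. In WT mice the ratio of every other list was below that of the 10 genes, the nearest being the heat shock genes. In V338Y mice several lists came close to the 3.08 of the 10 genes or exceeded it, with 2.68 for the delayed effector genes (17 of 19 more variable at 3 months), 2.53 for the upstream genes (28 of 28), 3.03 for astrocyte, 2.87 for microglia and 3.79 for blood markers. The part of these in the spread of the immediate early genes was not tested.

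Deviations of each mouse from the mean of its group were compared between the genes, as a description over 16 mice that share libraries and groups. The Pearson correlation of the 45 pairs ran from -0.21 to 0.95 with a median of 0.49, and 41 were above 0. The lowest value was that of *Fos* and *Fosb*, and *Fos* and *Egr1* had 0.02. *Fos* and *Dusp1* had the highest value, 0.95, followed by *Nr4a1* and *Dusp1* (0.92), *Junb* and *Nr4a1* (0.92) and *Junb* and *Arc* (0.92). Among 12843 other genes with a mean count of at least 50, the 8 whose deviations were most like the mean of the 10 were *Gm8995* (r = 0.88), *1700016P03Rik* (0.83), *Pla2g4e* (0.81), *Gm11847* (0.81), *Mrpl19* (0.80), *Trib1* (0.79), *Cdh5* (0.78) and *Dusp6* (0.77). *Trib1* and *Dusp6* belong to the lists of related genes described here, and *Cdh5* is an endothelial marker. Within the 8 young mice r was 0.92 for *Trib1* and 0.83 for *Dusp6*, and within the 8 old mice it was 0.16 and -0.22, so for these 2 genes the likeness was found in the young mice. *Pla2g4e* and *Gm11847* were lower in every WT than in every V338Y mouse of the same age. At 19 months *Pla2g4e* had a mean of 5.79 CPM in WT and 40.6 CPM in V338Y mice. Young WT mice differed among themselves, with 4.31 to 26.5 CPM of *Pla2g4e* and 0.132 to 4.43 CPM of *Gm11847*. The SD of log2 CPM of the 2 genes was 1.26 and 2.14 in young WT and 0.121 and 0.206 in young V338Y mice. The part of this difference in the spread of the 10 genes was not tested.

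**Figure D4:**
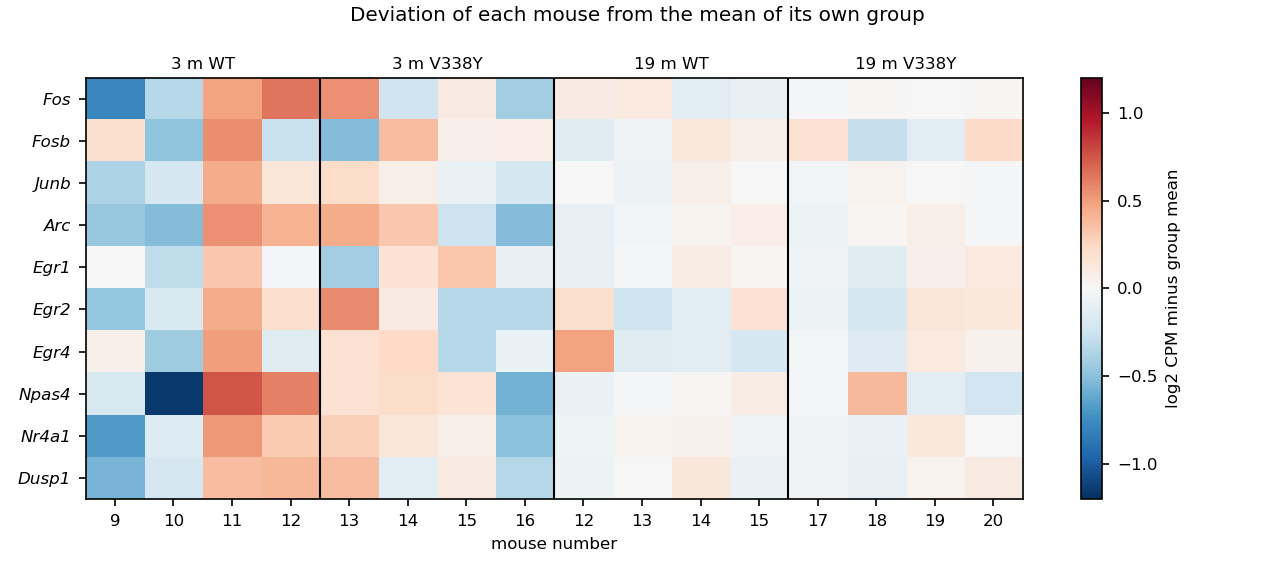
Log2 CPM of the 10 genes in each mouse minus the mean of its own group, from blue (below) to red (above), with mice on the horizontal axis by group. The column of young WT mouse 11 is red for all 10 genes and that of mouse 10 is blue for all 10, and the columns of old mice are nearly white apart from single cells such as *Egr4* in WT mouse 12.

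Related genes of the same response were taken as 5 lists. Of 14 paralogs of the 10 genes, 13 were tested, and with age 5 were called higher and 4 lower in WT mice and 5 higher and 2 lower in V338Y mice. Of all genes, 31.4% were called higher and 31.5% lower in WT mice, and 23.1% higher and 25.7% lower in V338Y mice. *Egr3*, another EGR factor, rose by 0.50 (SE 0.13, adjusted p = 0.00129, edgeR) in WT and by 0.39 (SE 0.12, adjusted p = 0.0217, edgeR) in V338Y mice. *Npas2*, a clock factor, rose by 0.83 in WT and 0.49 in V338Y mice, and *Fosl2* rose by 0.38 in WT mice. *Dusp5*, a phosphatase specific for ERK, fell by 1.32 in WT mice (SE 0.11, adjusted p = 5.6e-11, edgeR) and by 1.24 in V338Y mice (SE 0.39, adjusted p = 0.0362, edgeR), all on the log2 scale. In young V338Y mice *Dusp5* ran from 8.81 CPM in mouse 14, which had the lowest cerebellum marker sum, to 30.7 CPM, and in old V338Y mice from 9.06 to 10.7 CPM. Its call in V338Y mice was lost in 8 of 17 alternatives, among them each fit without 1 mouse except mouse 14 (adjusted p up to 0.0862), and without mouse 14 the adjusted p was 2.7e-08 (edgeR). The call of *Egr3* in V338Y mice was lost without mouse 16, 19 or 20 (adjusted p up to 0.0842, edgeR). *Npas1* fell in both genotypes (-0.76 and -0.46) and *Jund*, which is constitutively expressed, in WT mice (-0.41). The call of *Jund* was lost without mouse 10 or 12 of the young or mouse 15 of the old WT mice (adjusted p up to 0.0649, edgeR). The paralogs thus moved in both directions with a median of 0.12 in WT and 0.14 in V338Y mice.

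Of 26 other rapid response genes, 12 were called higher and 4 lower with age in WT mice, and 12 higher and 2 lower in V338Y mice, with medians of 0.22 and 0.25 on the log2 scale. Among called genes the largest rises were those of *Maff*, *Klf4* and *Klf2*. *Klf2* and *Klf4* encode factors that are strong in endothelial cells, whose 8 markers were all called higher with age in both genotypes. *Klf2* went from 5.45 ± 0.539 to 16.4 ± 0.812 CPM in WT mice and from 3.51 ± 0.76 to 16.2 ± 2.35 CPM in V338Y mice (SD, n = 4). *Klf4* went from 5.16 ± 0.378 to 17.1 ± 1.58 CPM in WT mice and from 3.78 ± 0.448 to 16.3 ± 0.667 CPM in V338Y mice. Among called genes the largest falls were those of *Nfil3* (-0.35), *Fbxo33* (-0.27) and *Arl5b* (-0.26) in WT mice and of *Gadd45g* (-0.33) and *Arl5b* (-0.30) in V338Y mice. The call of *Nfil3* was lost without young WT mouse 10 or 11 (adjusted p up to 0.0831, edgeR) and that of *Gadd45g* without mouse 13, 15, 18, 19 or 20 (adjusted p up to 0.106, edgeR).

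The 20 delayed effector genes, which immediate early factors and activity switch on later, had 3 called higher and 10 lower in WT mice, and 3 higher and 5 lower in V338Y mice. *Bdnf*, a neurotrophin, went from 32.1 ± 1.54 to 18.9 ± 1.09 CPM in WT mice (log2 -0.74, SE 0.076, adjusted p = 6.5e-10, edgeR) and fell by 0.55 on the log2 scale in V338Y mice. *Nrn1*, which promotes neurite growth, fell by 0.73 in both genotypes, and *Rgs2*, a brake on G protein signalling, fell by 0.53 in WT and 0.43 in V338Y mice. *Ptgs2*, an inducible prostaglandin synthase, rose by 0.86 in WT and 0.67 in V338Y mice. The median of this list was -0.11 in WT and 0.01 in V338Y mice, so the delayed genes had a lower median than the 10 immediate early genes in each genotype.

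Of 28 upstream kinases, receptors and transcription factors, 11 were called higher and 11 lower in WT mice, and 7 higher and 10 lower in V338Y mice. *Camk2a*, the main calcium-dependent kinase of excitatory synapses, went from 466 ± 29.2 to 1271 ± 134 CPM in WT mice (log2 1.46, SE 0.076, adjusted p = 2.2e-08, edgeR) and rose by 1.12 in V338Y mice. *Elk4*, a partner of SRF, rose by 1.18 in WT and 0.66 in V338Y mice. *Camk4*, a kinase that activates CREB and is abundant in cerebellar granule cells, fell by 0.65 in WT and 0.70 in V338Y mice, beside the fall of 13 of 14 cerebellum markers in WT and 12 of 14 in V338Y mice. *Prkaca*, the catalytic subunit of protein kinase A, fell by 0.61 and 0.45. Among repressors and partners, 5 were called higher and 2 lower of 8 tested in WT mice, and 4 higher and 1 lower of 9 in V338Y mice. *Nab1* rose by 0.30 and 0.21 and *Nab2*, both corepressors of EGR proteins, fell by 0.46 and 0.25 in WT and V338Y mice on the log2 scale. In V338Y mice the call of *Nab1* was lost without mouse 16 or 19 (adjusted p up to 0.0579, edgeR) and that of *Nab2* in 12 of 17 alternatives (adjusted p up to 0.128 with 1 mouse left out, edgeR).

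**Figure D5:**
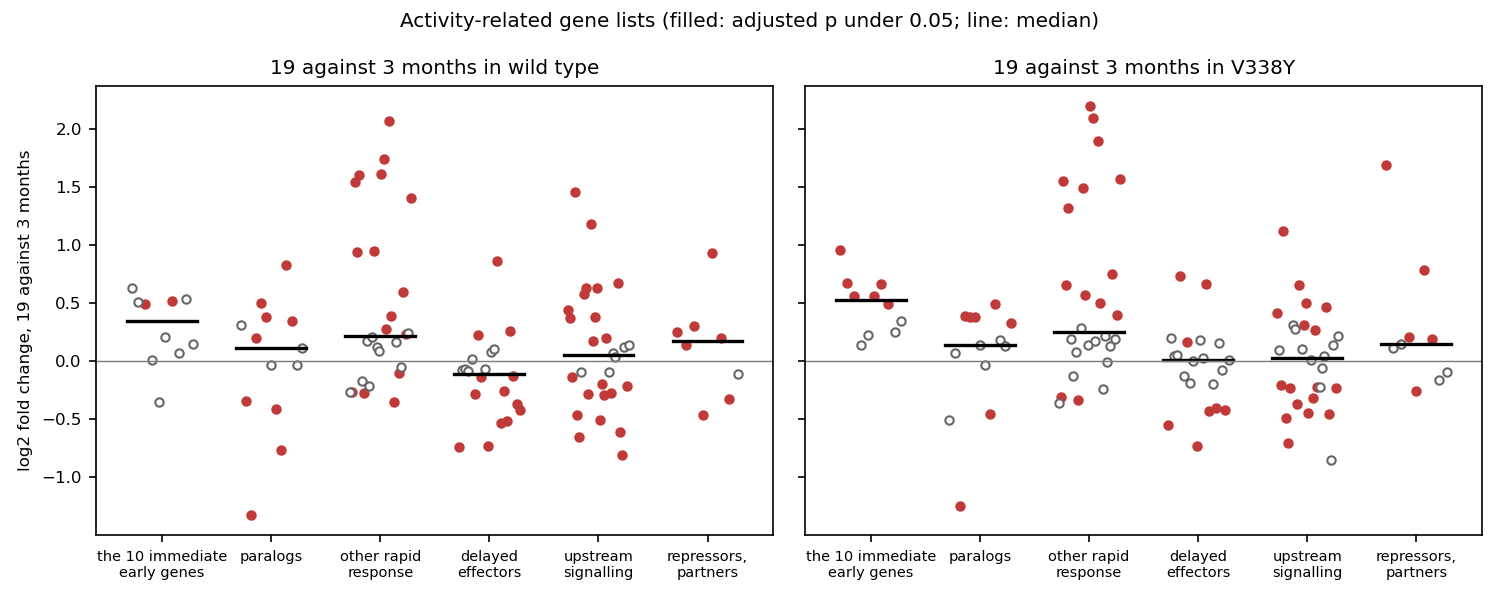
Log2 fold change from 3 to 19 months of each gene in the 10 immediate early genes and 5 lists of related genes, in WT (left) and V338Y mice (right), with red points for an adjusted p under 0.05 and a line at the median of the list. The called immediate early genes all lie above 0, whereas every other list has called genes on both sides of 0.

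Between the genotypes at 19 months few of these related genes were called, as of all genes 1.19% were called higher and 1.92% lower. Of the other rapid response genes *Ccn1*, a matricellular protein, fell by 0.42 (SE 0.097, adjusted p = 0.0112, edgeR) and *Btg2*, an antiproliferative factor, fell by 0.32 (SE 0.070, adjusted p = 0.00639, edgeR) in V338Y mice, so that 2 of 26 were lower and 0 higher. *Vgf*, a secreted neuropeptide precursor induced by BDNF, rose by 0.23 (SE 0.040), and was 1 of 20 delayed genes called. *Map2k2*, a kinase that activates ERK, rose by 0.18 (SE 0.049) and was 1 of 28 upstream genes called. The call of *Map2k2* was lost without mouse 13, 14 or 15 of the WT or mouse 17, 18 or 19 of the V338Y mice (adjusted p up to 0.192, edgeR), and that of *Btg2* without WT mouse 13 (adjusted p = 0.0592, edgeR). None of 13 paralogs and none of 9 repressors and partners was called. In each list 1 gene had an unadjusted p under 0.05 with edgeR, as did 16.2% of all genes. At 3 months none of these 5 lists had a called gene with edgeR. An unadjusted p under 0.05 was found for 2 of 13 paralogs, 6 of 26 rapid, 1 of 20 delayed, 0 of 28 upstream and 1 of 8 repressor genes. Of all genes, 5.02% had such a value.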

How the data were processed

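Cortex RNA of 16 mice was sequenced, and each title gave the genotype, age and mouse number. The authors deposited expected counts per Ensembl gene without normalization, in whole numbers. The study's methods name RSEM and Ensembl 75, whereas the submitters' processing notes list STAR 2.4.2a, featureCounts and GRCm38. The largest 1495 values had been rounded, since all of them ended in 0. Symbols were found for 37607 of 39179 identifiers in GENCODE M21, which also gave the coordinates and exon lengths. The study's methods name a stranded TruSeq kit for mRNA and also state that ribosomal RNA was depleted. The use of strand in counting is not given in the sources used here.

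R 4.3.3 was used with the packages DESeq2 1.42.0, edgeR 4.0.16 and limma 3.58.1. A gene was kept when, in either group, 2 or more of the 4 mice reached 10 counts. The kept counts were scaled with TMM and tested per pair of groups with the robust quasi-likelihood test of edgeR and the Benjamini-Hochberg adjustment over all genes tested, at an adjusted p under 0.05, and the interaction was tested in all 16 mice. SE is the size of the log2 fold change divided by the square root of F, and 95% intervals use the t distribution of the fit. CPM shown use TMM factors over all 16 mice, and log2 CPM used a prior count of 2. Total counts of 6181448 to 19601664 set the precision, and counting error is given as the SD that counts alone produce. Nothing says that replicates are more than separate mice of one cohort. No 2 libraries of a group agreed within sampling noise (chi-square per degree of freedom 1.81 to 25.0 over 24 pairs).

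Alternatives were RLE size factors, library size only, DESeq2, the likelihood-ratio test, stricter and no count filters, one fit of all 16 mice, the cerebellum marker score as a covariate, and leaving out each mouse. Leaving out mice 14 and 15 together was chosen after seeing the data. The 10 genes and all lists were chosen with earlier results of these data known. Genes named from the 5 related lists are the up to 3 called genes with the largest rise and the up to 3 with the largest fall per comparison, and not all of them are printed. The steps were tested on simulated counts. Of genes given a log2 change of 0.5, 71% to 92% were called between pairs of groups and 52% for the interaction. The changed genes were drawn from all genes with a mean count of at least 50. Between young WT mice the 10 immediate early genes had a median SD of 0.467, compared with 0.097 for genes with such counts. These shares may therefore not hold for the 10 genes where young mice are compared. False calls made up 5.08% (age in V338Y mice) to 9.13% (genotype at 19 months) of all calls. Promoter windows came from RefSeq on GRCm38.p6.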

Additional observations from a re-analysis of the deposited data

Results flagged for a closer look

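In 40 groups of 4 mice, 1 for each of the 10 genes in each of the 4 groups, the highest or lowest mouse was compared with its nearest neighbour, as a share of the whole range of the group, and 2 mice lay past Dixon's 95% critical value. Chance marks about 1 in 20 groups in this way. *Egr4* in old WT mouse 12 stood at 11.3 CPM, where the other mice of its group had 6.93 to 7.36 CPM (share 0.90). *Npas4* in young V338Y mouse 16 stood at 6.24 CPM, where the other mice had 10.5 to 10.9 CPM (share 0.911).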

How the results depend on the processing

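No paired analysis was possible, since mice were killed at 3 or at 19 months and the genotypes are different mice. The compared groups share at most 1 mouse number, which stands for a different mouse at each age. The count of called genes was kept within 1.5 times in 82 alternatives over all comparisons, where a count of 0 that stayed 0 was included. It moved further in 7, mostly for age in WT mice. In WT mice with age 2 genes were called, where 62.8% of all genes were called. DESeq2 called 4 (57.1% of all genes) and the likelihood-ratio test also called 4 (62.6%). Leaving out 1 mouse gave 1 to 5 (58.7% to 62.1%). Adding the score of cerebellum markers as a covariate gave 0, in a fit that called only 0.429% of all genes. Called genes were higher in old mice in these fits, except *Egr4*, which was called lower without young WT mouse 10, without old WT mouse 12 and without a count filter. In V338Y mice 6 were called (48.8%), 2 with that covariate (29.0%) and 5 to 7 with 1 mouse left out (42.2% to 51.4%). Between genotypes at 19 months 2 were called (3.12%), 0 in one fit of all 16 mice (0.689%) and 2 to 3 with 1 mouse left out (1.78% to 3.73%). At 3 months and for the interaction 0 were called in every alternative run, where at most 0.160% and 0.341% of all genes were called.

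In WT mice the score and age nearly coincide, so the 2 cannot be told apart in that fit. There the log2 change with age turned to -3.27 for *Fosb*, -0.98 for *Egr1*, -0.15 for *Npas4*, -1.58 for *Npas2*, -3.60 for *Egr3*, -1.17 for *Fosl2*, 1.504 for *Dusp5*, 1.39 for *Nfil3*, 0.68 for *Fbxo33*, 0.84 for *Arl5b*, -0.54 for *Mapk4*, -0.19 for *Camk2a*, -0.43 for *Mrtfb*, 2.65 for *Camk4*, -0.30 for *Rest*, -1.57 for *Hdac4* and 0.52 for *Nab2*, with none called. The same score turned *Egr4* to -0.0545 and *Dusp5* to 0.52 with age in V338Y mice, and *Fosb* to 0.0349 and *Egr1* to 0.0011 between genotypes at 19 months. With library size only, *Junb* turned to -0.0242 and *Egr2* to -0.083 with age in WT mice and *Fosb* to 3.45e-05 at 19 months. Without a count filter *Egr2* turned to -0.00516 in WT mice.

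With 1 mouse left out, the sign also depended on the mouse for *Junb* (-0.0297 to 0.23), *Egr2* (-0.0972 to 0.17) and *Nr4a1* (-0.00791 to 0.33) with age in WT mice, for *Fosb* at 19 months (-0.11 to 0.0655), for *Fosb* (-0.36 to 0.0521) and *Npas4* (-0.32 to 0.26) at 3 months, and for the interaction of *Npas4* (-0.54 to 0.0443), *Fosb* (-0.0738 to 0.34), *Egr1* (-0.029 to 0.20) and *Egr2* (-0.0183 to 0.37). The causes were not tested. Depth limits *Fosb* and *Egr2* most, with 26 to 106 counts per mouse.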
